A study of Rattus norvegicus with 18 samples.

Results

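The genes described here encode the translation initiation factors (eIFs) and elongation factors (eEFs), the proteins that bring a ribosome to the start codon of an mRNA and carry it along the message, with the binding proteins and kinases that regulate them. Members were the genes whose probe sets carry 1 symbol made of Eif and a digit, or starting with Eef1 or Eef2, and each gene was given by its probe set of highest mean log2 signal. The rule found 60 genes with 93 probe sets, out of 14217 named genes and 31042 probe sets. A further 5 probe sets that carry several symbols were left out. Of the 60 genes, 53 reached a signal of 400 on at least 1 array and were tested. The other 7 were Eef1akmt1, Eef1akmt2, Eef1akmt4, Eif2ak3, Eif2ak4, Eif2s3y and Eif5a2, whose highest signals lay between 16.7 for the Y-linked Eif2s3y and 351 for Eif2ak4.

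RNA came from the diaphragm (DIA), the extensor digitorum longus of the leg (EDL) and the rectus muscles of the extraocular group (EOM) of female Lewis rats that were 6 to 8 weeks old at immunization. Rats with experimental autoimmune myasthenia gravis (EAMG) had been injected once with 40 µg of acetylcholine receptor from the electric ray Torpedo in complete Freund's adjuvant with added Mycobacterium tuberculosis, and control rats with the same adjuvant mixture without receptor, so that both groups carry the adjuvant response. Muscles were taken 6 weeks later, and each of the 18 Affymetrix rat arrays, 3 for each muscle and treatment, held RNA pooled from several rats, given as 3 in the labels and as 4 to 5 in the methods. Values are GCOS signals, linear intensities that the authors scaled to a common target on every array. Changes were tested on the log2 scale with limma over all 12238 probe sets that reached the minimum, and a change passed at a Benjamini-Hochberg adjusted p under 0.05. A whole muscle mixes cell types, so fewer cells of a type and less RNA per cell cannot be told apart.

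Initiation on most mRNAs begins when eIF4E binds the cap at the 5′ end, the scaffold eIF4G joins it to the helicase eIF4A, and eIF3 links this assembly to the small ribosomal subunit carrying eIF2, GTP and the initiator tRNA. Control acts mainly on the cap-binding step and on eIF2. The 4E-binding proteins hold eIF4E away from eIF4G until the kinase mTORC1 phosphorylates them, and phosphorylated eIF2 blocks its own exchange factor, eIF2B. In elongation, eEF1A delivers aminoacyl-tRNA and eEF2 moves the ribosome, and eEF2 kinase inhibits eEF2. Skeletal muscle is known for exchanging eEF1A1 for the isoform eEF1A2 as fibres mature and for adjusting these steps with loading, feeding and glucocorticoids.

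Promoter sequences were read from RefSeq on build GRCr8, which has entries for 55 of the 60 members. The 5 without one were Eef1d, Eif3h, Eif4b, Eif4e3 and Eif4ebp1. The windows are shown because some of these genes have start-site features that the membership rule did not use. In the shares below a member counts once if any of its promoter entries matches, while the share over all promoters counts entries. The E-box CACGTG, which reads the same on both strands and is a site bound by MYC and related factors, lay between 250 bases before and 50 after the annotated start in 12 of 55 members, or 21.8%, against 2148 of 33469 promoters, or 6.42%. The 6 windows below hold 10 bases on either side of a match, given in capitals, on the strand of the gene, for members whose values are given further on. A match is a description of the letters and not of binding.
Eif4e, chr2:229740663-229740688, plus strand, first base 80 before the start: acacgtccgtCACGTGggcaggagcc
Eif4g1, chr11:93746406-93746431, minus strand, 54 before: cagtgggtgtCACGTGatggggcgga
Eif4h, chr12:27719514-27719539, plus strand, 168 before: gccgccccacCACGTGggccgcagag
Eif3b, chr12:19334810-19334835, minus strand, 57 before: tcgctgcacgCACGTGgctccgcgct
Eef2, chr7:9189299-9189324, minus strand, 76 before: cccgcgccgtCACGTGacgtgcccaa
Eef2k, chr1:184824333-184824358, plus strand, 77 before: ccggggcagcCACGTGagcccgggcg

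The mRNAs of several elongation factors belong to the 5′ oligopyrimidine class, which start with a C followed by a run of pyrimidines and whose translation depends on mTORC1. A run of at least 7 pyrimidines lay within 10 bases before to 20 after the annotated start in 15 of 55 members, or 27.3%, against 17% of all promoters. The windows below cover those 30 bases, with the longest run in capitals. The run spans 9 bases in Eef1a1, 15 in Eef1b2, 14 in Eif3f and 16 in Eif2s3. Eef2 and Eef1g are elongation factors whose longest runs in the window at the annotated start were 4 and 2 bases. The Eef2 promoter printed further below holds a longer run, tctcttcc, before this window. What the window shows depends on where the start is annotated, so a short run here does not place a gene outside the class.
Eef1a1, chr8:88225050-88225079, minus strand: ttggacgTTCTTTTTCgcaacgggtttgcc
Eef1b2, chr9:72074081-72074110, plus strand: ggccggtcccggCCCTTTTTCTCCCTCagc
Eif3f, chr1:172369052-172369081, plus strand: cccttccgttctagCCTCTCTCTTTCTCgg
Eif2s3, chrX:62933680-62933709, minus strand: cagccgagcaTTTTCCTTTTCTCTCTgagc
Eef2, chr7:9189219-9189248, minus strand: ccgcagccgccgccatcgtcggcgcgCTTC
Eef1g, chr1:215289805-215289834, plus strand: CTgcggaatcaccatggcggctggggtaag

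The 250 bases before the annotated start of Eef2, whose signal was apart from the controls in every muscle, are printed whole. Capitals mark the E-box and, 31 bases before the start, the cyclic AMP response element TGACGTCA, searched on both strands, which 1 of the 55 members held, or 1.82%, against 1.83% of all promoters.
Eef2, chr7:9189239-9189488, minus strand: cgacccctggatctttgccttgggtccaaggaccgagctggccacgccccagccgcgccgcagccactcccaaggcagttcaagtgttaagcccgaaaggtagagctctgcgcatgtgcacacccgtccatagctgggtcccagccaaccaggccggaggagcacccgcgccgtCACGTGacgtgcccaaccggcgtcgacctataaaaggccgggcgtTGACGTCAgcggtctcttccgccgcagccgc

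Before the comparisons, some properties of the arrays bear on the values. Between 27.9% and 31.1% of probe sets reached 400 on each array. The summed signal of the extraocular markers was 25033 to 28622 on EOM control arrays against 105 to 160 in DIA and 625 to 886 in EDL, and markers of skeletal muscle fibres were high in every muscle. The mean signal of the spiked poly-A controls was 842 on DIA EAMG 2 and 586 on EOM EAMG 2 against at least 11357 elsewhere. For GAPDH, the 3′ probe set exceeded the 5′ one 2.66-fold on DIA EAMG 3 and 1.06- to 1.33-fold elsewhere. On EDL EAMG 2 the summed slow-fibre markers reached 111688, where the EDL control arrays lay between 36359 and 48246.

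In DIA, Eif4ebp1 rose and Eif4e3 fell in EAMG, and none of the other 51 members passed, for 1 of 53 higher and 1 of 53 lower against 1.53% and 1.15% of all probe sets. In EDL, 6 members rose, Eif4ebp1, Eif4g3, Eif2b2, Eif4a3, Eif3l and Eef2, against 3.37% of all probe sets, and Eif4e3 fell, against 3.22%. In EOM, Eif4e3 fell and no member rose, where 0.531% of all probe sets fell and 0.964% rose by limma. At an unadjusted p under 0.05 there were 3 members higher in EOM, Eef2, Eif3b and Eif4b, of 53, against 7.13% of all probe sets. Averaged over the 3 muscles, 18 members rose and 1 fell, where 10.5% of all probe sets rose and 9.93% fell. By the methods all 3 muscles were dissected from the rats, so pools of different muscles may share animals. The fit took the 18 arrays as independent, so p-values over the muscles may be too small and intervals too narrow. Leaving out 1 array does not address this.

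Eif4e3, a cap-binding protein of the eIF4E family with its own mode of cap contact, was lower in EAMG in every muscle. In DIA its signal was 1559, 1938 and 1521 on the control arrays and 1160, 817 and 1026 on the EAMG arrays. In EDL it was 4703, 4117 and 3265 against 2405, 1851 and 1929, and in EOM 1675, 1867 and 1553 against 942, 781 and 1179. Each EAMG array lay below every control array of its muscle. The log2 change was -0.75 in DIA (SE 0.18, limma adjusted p = 0.043), -0.96 in EDL (SE 0.18, adjusted p = 0.0095) and -0.83 in EOM (SE 0.18, adjusted p = 0.035). Averaged over the muscles it fell by 0.85 (95% interval -1.07 to -0.62, limma adjusted p = 0.00015). The second probe set of Eif4e3 was also apart from the controls in each muscle, at 999, 1037 and 1072 against 715, 764 and 824 in DIA, 2179, 1880 and 1714 against 1460, 1082 and 1267 in EDL, and 1320, 1269 and 1335 against 990, 1010 and 986 in EOM. By this probe set the fall passed in EDL (-0.60, limma adjusted p = 0.0099) and over the 3 muscles (-0.48, adjusted p = 0.00035), but not in DIA (-0.43, adjusted p = 0.058) or EOM (-0.39, adjusted p = 0.12). The fall over the 3 muscles passed in each of the 18 fits without 1 array. Within muscles the call was lost without EDL control 1 in EDL (limma adjusted p = 0.055), in 10 of those fits in DIA and in 6 in EOM.

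The other cap-binding proteins did not pass in any muscle. Eif4e, the main cap-binding protein, changed by a log2 value of -0.15 for DIA, 0.00 for EDL and -0.11 for EOM, with a mean of -0.08 (95% interval -0.24 to 0.07). Eif4e2, whose product binds the cap without joining eIF4G, had changes of 0.16, 0.04 and -0.03, and a mean of 0.06 (95% interval -0.08 to 0.20). Signals of both overlapped between EAMG and control in every muscle, for Eif4e between 3879 and 6577 and for Eif4e2 between 827 and 1429 over the 18 arrays.

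Of the 4E-binding proteins, Eif4ebp1, which encodes a direct target of mTORC1, rose in DIA and EDL. Its signal in DIA was 1826, 1616 and 2009 on control arrays and 2953, 4762 and 3763 on EAMG arrays. In EDL it was 1733, 1951 and 2261 against 2604, 5038 and 6779. In EOM it was 1833, 1766 and 1648 against 2135, 2026 and 1964. The arrays were apart in every muscle, with the smallest gap in EOM, where no EAMG array reached the lowest EAMG array of DIA or EDL. The log2 change was 1.05 in DIA (SE 0.26, limma adjusted p = 0.042), 1.18 in EDL (SE 0.26, adjusted p = 0.017) and 0.22 in EOM (SE 0.26, adjusted p = 0.76), and over the 3 muscles 0.82 (95% interval 0.50 to 1.14, adjusted p = 0.0019). The call over the 3 muscles held in each of the 18 fits without 1 array, while that in DIA was lost in 13 of them and that in EDL in 4. The difference of the change in EOM from that in EDL was -0.96 (95% interval -1.73 to -0.18), which did not pass over all probe sets (limma adjusted p = 0.39) except without EDL EAMG 1, where it was -1.35 (adjusted p = 0.027). Eif4ebp2, the form prominent in neurons, was at 2013, 2072 and 2552 in DIA controls and 2834, 3056 and 3598 in DIA EAMG, and its mean change over the muscles was 0.33 (limma adjusted p = 0.03), with 0.52, 0.39 and 0.08 in DIA, EDL and EOM, none of which passed. Eif4ebp3 had changes of 0.44, 0.18 and 0.19, and its mean of 0.27 did not pass (limma adjusted p = 0.06).

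**Figure D1:**
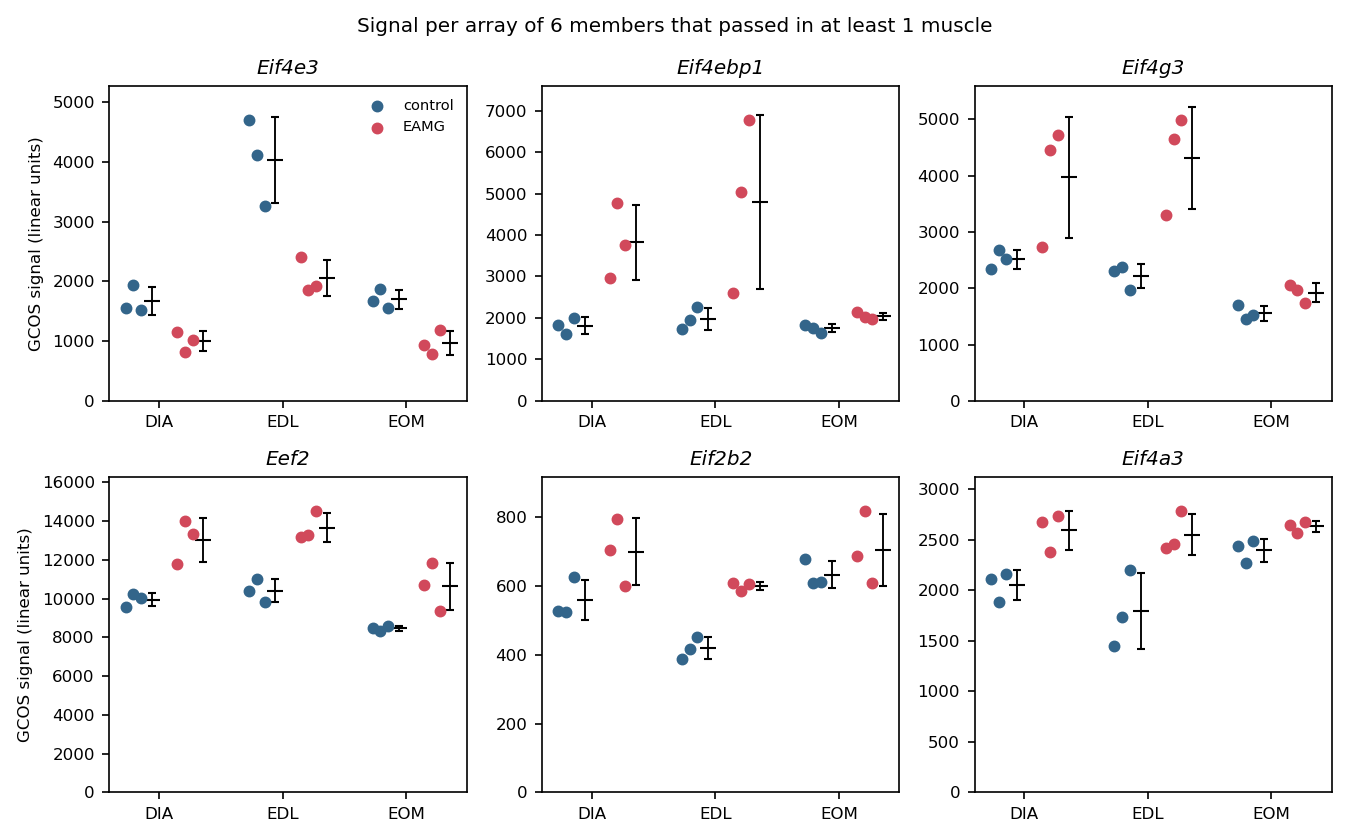
GCOS signal in linear units (vertical axes, from 0) of 6 members that passed in at least 1 muscle, by muscle, with 1 point per array and black bars for the mean ± SD of 3 arrays (blue control, red EAMG). Eif4e3 is lower in EAMG in each muscle, while Eif4ebp1 reaches 4762 in DIA and 6779 in EDL but no more than 2135 in EOM.

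Among the other cap-complex genes, Eif4g3, which encodes an eIF4G scaffold, rose in EDL. Its signal in EDL was 2303, 2379 and 1970 on control arrays and 3294, 4651 and 4989 on EAMG arrays. In DIA it was 2338, 2678 and 2525 against 2740, 4458 and 4718, and in EOM 1704, 1449 and 1518 against 2058, 1967 and 1745. The arrays did not overlap in any muscle. The log2 change was 0.94 in EDL (SE 0.19, limma adjusted p = 0.012), 0.62 in DIA (adjusted p = 0.09) and 0.30 in EOM (adjusted p = 0.54), with a mean of 0.62 (95% interval 0.39 to 0.86, adjusted p = 0.0016). Eif4a3, an eIF4A-related helicase of the exon junction complex, stood at 1452, 1737 and 2196 in EDL controls and 2415, 2456 and 2781 in EDL EAMG, with no overlap, and rose by 0.52 (SE 0.13, limma adjusted p = 0.029). Its arrays were apart in DIA and EOM as well, by 0.34 and 0.14, neither of which passed. Over the 3 muscles Eif4a3 rose by 0.33, Eif4b by 0.32 and Eif4h by 0.24, where eIF4B and eIF4H stimulate the eIF4A helicase. Eif4g1, the other main scaffold gene, had changes of -0.20, 0.48 and 0.11, none of which passed, and Eif4a2, the member of this group with the brightest probe set, had 0.05, 0.15 and 0.03.

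The exchange factor eIF2B has 5 subunits, and the change of all 5 was above 0 in DIA and EDL and of 4 in EOM, against 51.3%, 49.7% and 50.1% of all probe sets. The second probe set of Eif2b5 had the opposite sign in DIA. Eif2b2 was at 388, 417 and 453 on EDL control arrays and at 608, 586 and 604 on EDL EAMG arrays, apart and with little spread, and rose by 0.52 (SE 0.13, limma adjusted p = 0.03). In DIA its arrays overlapped, at 527, 524 and 626 against 705, 793 and 598. Over the 3 muscles 4 of the 5 subunits rose, where 10.5% of all probe sets did, Eif2b2 by 0.33, Eif2b5, the catalytic subunit, by 0.28, and Eif2b1 and Eif2b4 by 0.20 each. Of these only Eif2b2 passed in each of the 18 fits without 1 array, and Eif2b1 did so in 10, Eif2b5 in 5 and Eif2b4 in 4. Of eIF2 itself, Eif2s3, the GTP-binding subunit, rose over the muscles by 0.29 (limma adjusted p = 0.033). Eif2s1, whose product carries the regulatory phosphorylation site, had a mean change of 0.01, and Eif2s2, the brightest of the group, 0.15, neither passing. The kinases of eIF2 that could be tested, Eif2ak1 (HRI) and Eif2ak2 (PKR), had changes below 0 in each muscle, of -0.14, -0.17 and -0.08 and of -0.26, -0.28 and -0.32, none of which passed. The second probe set of Eif2ak1 had the opposite sign in EDL.

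Changes of the eIF3 genes, which encode the largest initiation complex, were small and mostly above 0. The change was above 0 for 11 of 11 subunits tested in DIA and in EDL and for 9 of 11 in EOM, against 51.3%, 49.7% and 50.1% of all probe sets. The second probe set of Eif3a had the opposite sign in EDL. The medians were 0.27, 0.21 and 0.03. Only Eif3l passed within a muscle. It was at 2087, 2083 and 2848 on EDL control arrays and at 2747, 3500 and 3544 on EDL EAMG arrays, which overlap, with a change of 0.49 (SE 0.14) at a limma adjusted p of 0.0499. The call was lost with the replicate block (limma adjusted p = 0.054) and in 16 of the 18 fits without 1 array. That block gives same-numbered arrays of all 3 muscles a shared offset and does not pair the EDL arrays alone. Over the 3 muscles 5 of 11 subunits rose, where 10.5% of all probe sets did. These were Eif3b by 0.33, Eif3l by 0.25, Eif3k by 0.24, Eif3h by 0.21 and Eif3c by 0.20. Eif3b and Eif3c passed in each of the 18 fits without 1 array, Eif3k in 11, Eif3l in 6 and Eif3h in 5. Eif3m, the brightest subunit, had changes of 0.30, 0.11 and 0.16, none of which passed.

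Of the elongation factors, Eef2 showed the most even change. Its signal in DIA was 9553, 10216 and 10048 on control arrays and 11768, 13998 and 13346 on EAMG arrays. In EDL it was 10378, 11002 and 9844 against 13203, 13258 and 14509, and in EOM 8474, 8339 and 8611 against 10701, 11827 and 9383. All EAMG arrays lay above the controls of their muscle. The change of 0.39 passed in EDL (SE 0.10, limma adjusted p = 0.037), while 0.39 in DIA (adjusted p = 0.057) and 0.32 in EOM (adjusted p = 0.16) did not, and the mean was 0.37 (95% interval 0.24 to 0.49, adjusted p = 0.0009). Eef2k, which encodes the kinase that inhibits eEF2, had changes of -0.02, -0.30 and 0.37, none of which passed. The second probe set of Eef2k had the opposite sign in DIA and EDL.

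Of the isoforms of eEF1A, Eef1a1 was at 10735, 13747 and 11752 on DIA control arrays and 14440, 16436 and 16558 on DIA EAMG arrays, and rose over the 3 muscles by 0.32 (limma adjusted p = 0.038), with 0.39, 0.51 and 0.07 in DIA, EDL and EOM, none of which passed. This probe set has the suffix _s_at, which Affymetrix gives where probes can match several similar transcripts, so copies of the gene cannot be kept apart. The second probe set had 0.46, 0.53 and -0.00. Eef1a2, the isoform of mature muscle, was at 9096, 8613 and 9687 against 8861, 12862 and 5098 in DIA, and its mean change was 0.15 (95% interval -0.18 to 0.49). The 3 DIA EAMG arrays of Eef1a2 spread more widely than the change, with the lowest value on DIA EAMG 3. For Eef1g, a subunit of the exchange complex of eEF1A, the probe sets disagreed, with a mean change of 0.02 for the brighter and of -0.53 for the other (limma adjusted p = 0.031), whose signal was at most 511.

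The small eIF1 group, eIF5A, eIF5B and eIF6 gave no member that passed. Eif1ax, which helps scan for the start codon, had changes of -0.07, -0.19 and -0.09, and its arrays were apart in DIA and EDL. Eif5a, whose product carries the amino acid hypusine, had -0.45, 0.02 and -0.25, with 2477 on DIA EAMG 3 where the other DIA arrays lay between 4959 and 6111. Eif6, which keeps the ribosomal subunits apart, had 0.07, 0.33 and -0.14.

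**Figure D2:**
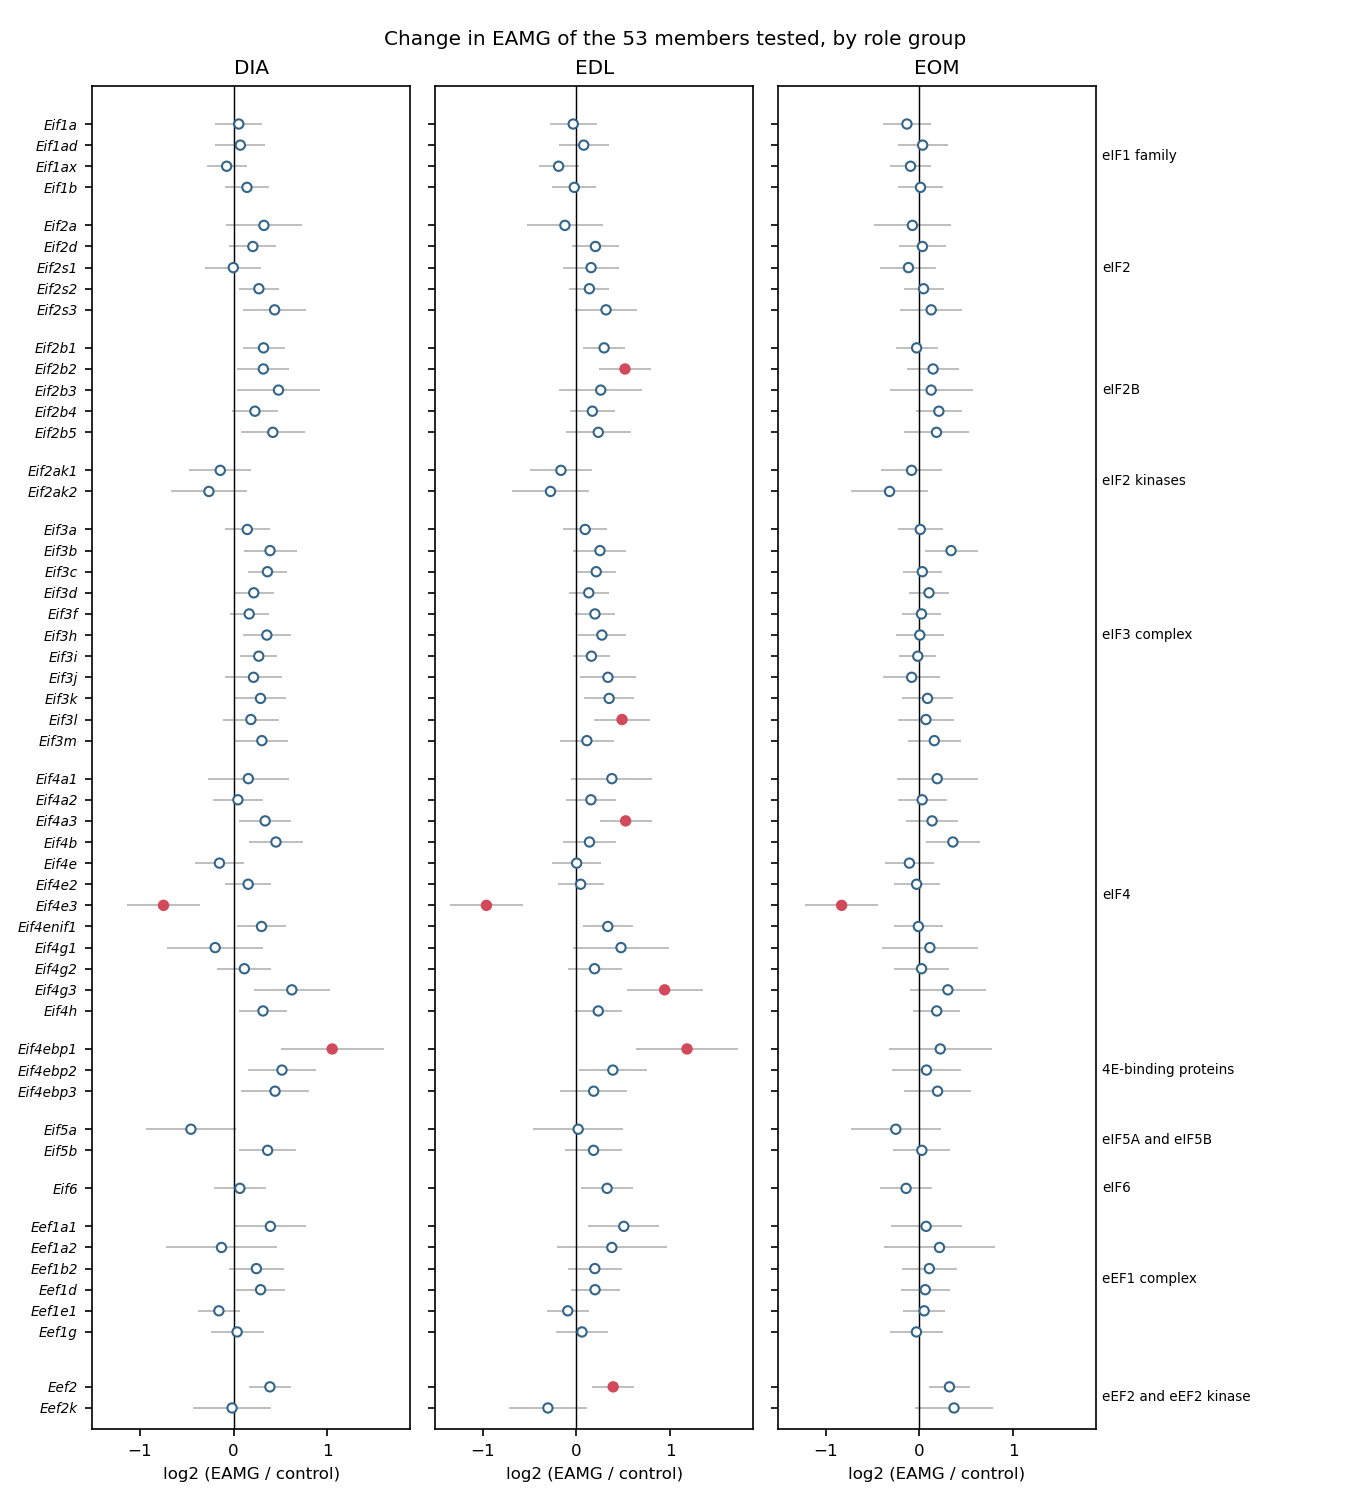
log2 change in EAMG over control (horizontal axes) of the 53 members tested, by role group, in DIA, EDL and EOM, with lines for limma's 95% intervals and filled red points for those at an adjusted p under 0.05. Most points lie to the right of 0 in DIA and EDL, 42 and 44 of 53, and Eif4e3 stands to the left in each muscle.

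Most of the 53 members tested had a change above 0, those that passed included. In DIA this held for 42 of 53, in EDL for 44 and in EOM for 37, with medians of 0.23, 0.20 and 0.05 on the log2 scale, where the medians of all probe sets tested were 0.01, 0.00 and 0.00. All 3 EAMG arrays exceeded all 3 controls for 20 members in DIA, 20 in EDL and 9 in EOM, against 13.3%, 12.6% and 12.5% of all probe sets. The reverse order held for 2, 3 and 2 members, against 11.1%, 12.4% and 11.9%. The members higher without overlap in every muscle were Eef2, Eif4a3, Eif4ebp1 and Eif4g3, and the member lower in every muscle was Eif4e3. Changes above 0 in all 3 muscles were found for 32 members, and below 0 for 4, Eif1ax, Eif2ak1, Eif2ak2 and Eif4e3. The shares of all probe sets that meet these rules in all 3 muscles at once were not computed, so the joint counts have no background beside them. These counts describe members of shared complexes on the same arrays, which are not independent replicates.

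The median log2 difference of the 53 members from the mean of the control arrays was 0.14, 0.30 and 0.26 on DIA EAMG 1, 2 and 3, and 0.15, 0.17 and 0.25 on the EDL EAMG arrays. On the EOM EAMG arrays it was 0.08, 0.10 and -0.01. Control arrays lay between -0.08 and 0.05, so that each EAMG array of DIA and EDL was above every control array and the EOM arrays were not all so. Without EOM EAMG 3 the median change in EOM was 0.11 rather than 0.05. Over all probe sets tested the same median stayed between -0.03 and 0.04. DIA EAMG 2, with its low poly-A spike, had the highest shift in DIA, and DIA EAMG 1, which had neither mark, the lowest. The part of these array properties in the shift was not tested.

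**Figure D3:**
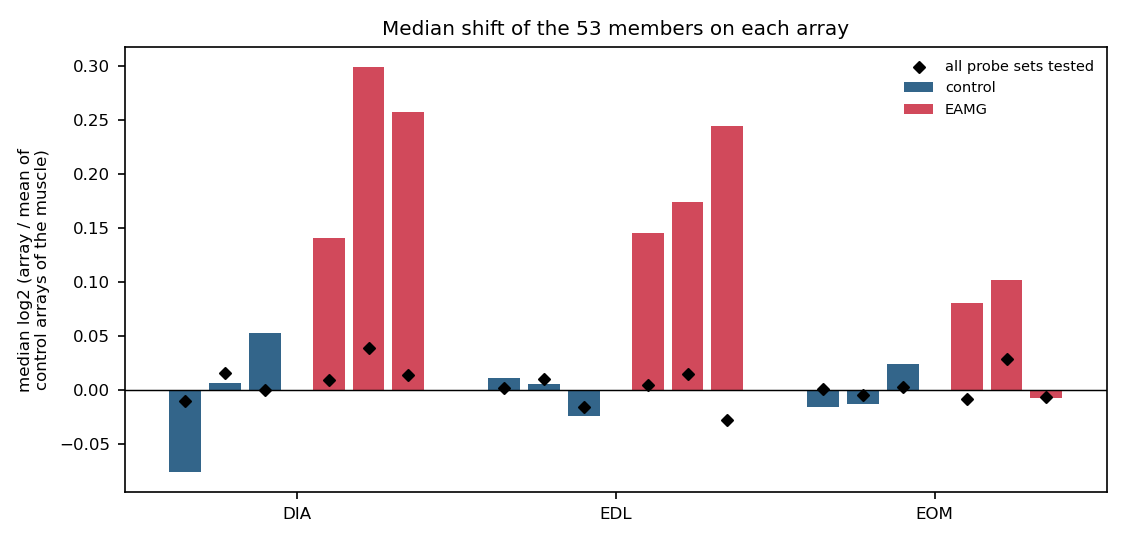
Median log2 difference of the 53 members from the mean of the 3 control arrays of the muscle (vertical axis), with 1 bar per array (blue control, red EAMG) and black diamonds for the same median over all probe sets tested. The EAMG bars of DIA and EDL lie between 0.14 and 0.30, those of EOM between -0.01 and 0.10.

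The calls within a muscle rested on few arrays, and those of all 12238 probe sets moved as well. In DIA 328 probe sets passed, with 63 without DIA EAMG 2 and 805 without DIA EAMG 1. In EDL 806 passed, with 176 without EDL control 1, 240 without EDL EAMG 2 and 1279 without EDL EAMG 1. In EOM 183 passed, with 50 without EOM control 2 and 213 without EDL EAMG 2. Over the 3 muscles 2495 passed, with 1636 without both arrays of low poly-A signal. The member counts below were thus not particular to these genes. In DIA no member passed without DIA control 1, 2 or 3, DIA EAMG 2 or 3, EDL control 2, or EOM control 1, 2 or 3, 1 passed without EDL control 1, Eif4e3, and 1 without EOM EAMG 1, Eif3c, and 7 passed without DIA EAMG 1, Eef2, Eif3b, Eif3c, Eif4b and Eif4g3 joining the first pair. In EDL 1 member passed without EDL EAMG 2, EDL EAMG 3 or EDL control 1, and 2 without EDL control 2, Eif4e3 being the one left without EDL EAMG 2 or 3 and Eif4g3 without EDL control 1. In EOM none passed without EDL control 2, EOM EAMG 1 or 2, or EOM control 1, 2 or 3. With replicate numbers as a block, Eef1a1 passed in EDL (0.51, limma adjusted p = 0.041). Of the 19 members that passed over the 3 muscles, 9 passed without both arrays of low poly-A signal, 10 without EOM control 2, 11 without EDL control 1 or DIA EAMG 2, and 12 without DIA control 1, EOM control 1 or EOM control 3. Eif3i, which is not among the 19, passed without both low poly-A arrays and without DIA EAMG 2. In each of the 18 fits without 1 array 10 of the 19 passed, Eef2, Eif2b2, Eif3b, Eif3c, Eif4a3, Eif4b, Eif4e3, Eif4ebp1, Eif4g3 and Eif4h, and of these Eif4h was lost without both low poly-A arrays.

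Markers of other cell types moved with EAMG in the same muscles. Fibroblast markers fell, 2 of 6 in DIA and 4 of 6 in EDL with none in EOM, and their summed signal went from 40181 to 46621 on DIA control arrays to 24422 to 33316 on DIA EAMG arrays, and in EDL from 21190 to 34694 to 14993 to 21529. Markers of red blood cells fell, 3 of 3 in DIA and EOM and 1 of 3 in EDL. Of all probe sets 1.15% fell in DIA, 3.22% in EDL and 0.531% in EOM, and 0.964% rose in EOM. Summed macrophage markers were 6048 to 8797 on DIA controls and 9381 to 12947 on DIA EAMG arrays, with 7 of 7 above 0 and none passing. No T cell marker reached 400. Lipid genes listed as markers of the orbital glands, of which Thrsp passed, summed to 1997 to 2715 on EOM control arrays and 5374 to 7128 on EOM EAMG arrays. In EDL they summed to 523 to 1153 and 357 to 483, without overlap in either muscle. In DIA the sums were 1862 to 11223 on control and 1427 to 3958 on EAMG arrays, which overlap. The signal of this list is thus not particular to EOM, and its source was not tested. Adipocyte markers did not pass, and in EDL 0 of 3 were above 0, with a median of -1.51. The part of these cells in the members' changes was not tested.

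No member's change differed between muscles by limma, where 0.123% of all probe sets did in at least 1 of the 3 pairs. At an unadjusted p under 0.05 in any pair there were 7 of 53, Eef2k, Eif2b1, Eif3c, Eif3i, Eif4ebp1, Eif4g3 and Eif6, against 16.2% of all probe sets. The change was smaller in EOM than in EDL for 41 of 53 members and than in DIA for 45 of 53, with medians of the difference of -0.13 and -0.14. It was larger in EOM for 12 and 8, against 51.1% and 48.4% of all probe sets. Both counts use the same EOM arrays, and the members are not independent replicates. For Eif4g3 the EOM change differed from that in EDL by -0.64 (95% interval -1.21 to -0.06, limma adjusted p = 0.43). For Eif4e3 the EOM and EDL changes differed by 0.13 (95% interval -0.42 to 0.68), and for Eef2 by -0.07 (95% interval -0.38 to 0.24).

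The control arrays also give the levels of these genes in each muscle of rats that had received adjuvant alone. These contrasts share the control arrays with the comparisons above and with one another. Between EOM and EDL, 5 members were higher in EOM and 21 lower, against 23.1% and 18.3% of all probe sets. Between EOM and DIA, 1 was higher in EOM and 11 lower, against 10.6% and 10.7%. Between DIA and EDL, 3 were higher in DIA and 5 lower, against 14.1% and 10.8%. Cell type markers differed between these muscles too. In EOM against EDL, 7 of 7 macrophage, 4 of 4 Schwann cell and 5 of 6 fibroblast markers were higher, with medians of 1.83, 1.74 and 1.14. Of 6 skeletal muscle fibre markers 0 were higher and 1 lower, with a median of -0.31, and adipocyte markers did not pass. The part of these cells in the members' differences between muscles was not tested.

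Eef2k had the widest range between muscles. Its control signals were 1871, 1989 and 1465 in EDL, 723, 747 and 895 in DIA and 506, 508 and 541 in EOM, and no muscle overlapped another. The log2 difference was -1.76 for EOM against EDL (SE 0.19, limma adjusted p = 5.5e-06), -0.60 for EOM against DIA (adjusted p = 0.038) and -1.17 for DIA against EDL (adjusted p = 0.00066). The other tested probe sets of the same gene gave -2.54 and -1.86 between EOM and EDL, both passing. Eif4e3 was higher in EDL controls than in either other muscle, by the values given above, with -1.23 for EOM against EDL (limma adjusted p = 8.9e-05) and -1.26 for DIA against EDL (adjusted p = 0.00022), while EOM and DIA differed by 0.03 (95% interval -0.36 to 0.42).

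Eif3j, a loosely bound eIF3 subunit, was at 8447, 9061 and 10370 in EDL, 7178, 6427 and 7884 in DIA and 3947, 4530 and 4233 in EOM, with a log2 difference of EOM from EDL of -1.13 (SE 0.14, limma adjusted p = 1.9e-05) and from DIA of -0.75 (adjusted p = 0.0013). Eif5b, a GTPase that joins the ribosomal subunits, was at 2514, 2551 and 1921 in EDL, 1541, 1980 and 1617 in DIA and 1239, 1017 and 1212 in EOM, with -1.005 between EOM and EDL (SE 0.14, limma adjusted p = 5.7e-05). EOM lay below both limb muscle and diaphragm without overlap for either gene. Eif4b and Eif4ebp2 were also lower in EOM than in EDL, with differences of -0.89 and -0.88.

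Eef1a1 went the other way. Its control signals were 16451, 17337 and 16016 in EOM, 10735, 13747 and 11752 in DIA and 7724, 9729 and 6738 in EDL, apart in all 3 muscles. EOM exceeded EDL by 1.06 (SE 0.18, limma adjusted p = 0.00025) and DIA exceeded EDL by 0.59 (adjusted p = 0.025), and the second probe set gave 1.30 and 0.76. Eef1a2, the mature isoform, did not pass in any of these contrasts, with -0.23 for EOM against EDL (95% interval -0.82 to 0.35) and 0.06 for DIA against EDL (95% interval -0.53 to 0.65). The other members higher in EOM than in EDL were Eif4h with 0.79, Eif2b2 with 0.59, Eif4a3 with 0.44 and Eif2s3 with 0.43, and Eif4h was also above DIA by 0.55. The named differences between EOM and EDL of Eef2k, Eif4e3, Eif3j, Eif5b and Eef1a1, and those between DIA and EDL of Eef2k and Eif4e3, passed in each of the 18 fits without 1 array. The difference of Eef2k between EOM and DIA was lost without any 1 of the DIA or EOM control arrays, with the replicate block, without both low poly-A arrays and without a signal minimum. That of Eef1a1 between DIA and EDL was lost in 4 of the 18 fits. The count for EOM against DIA fell from 12 to 6 without DIA control 2 or 3, to 7 without EOM control 1 and to 4 without EOM control 2, and that for DIA against EDL from 8 to 4 without EDL control 1 and to 5 without EDL control 2.

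**Figure D4:**
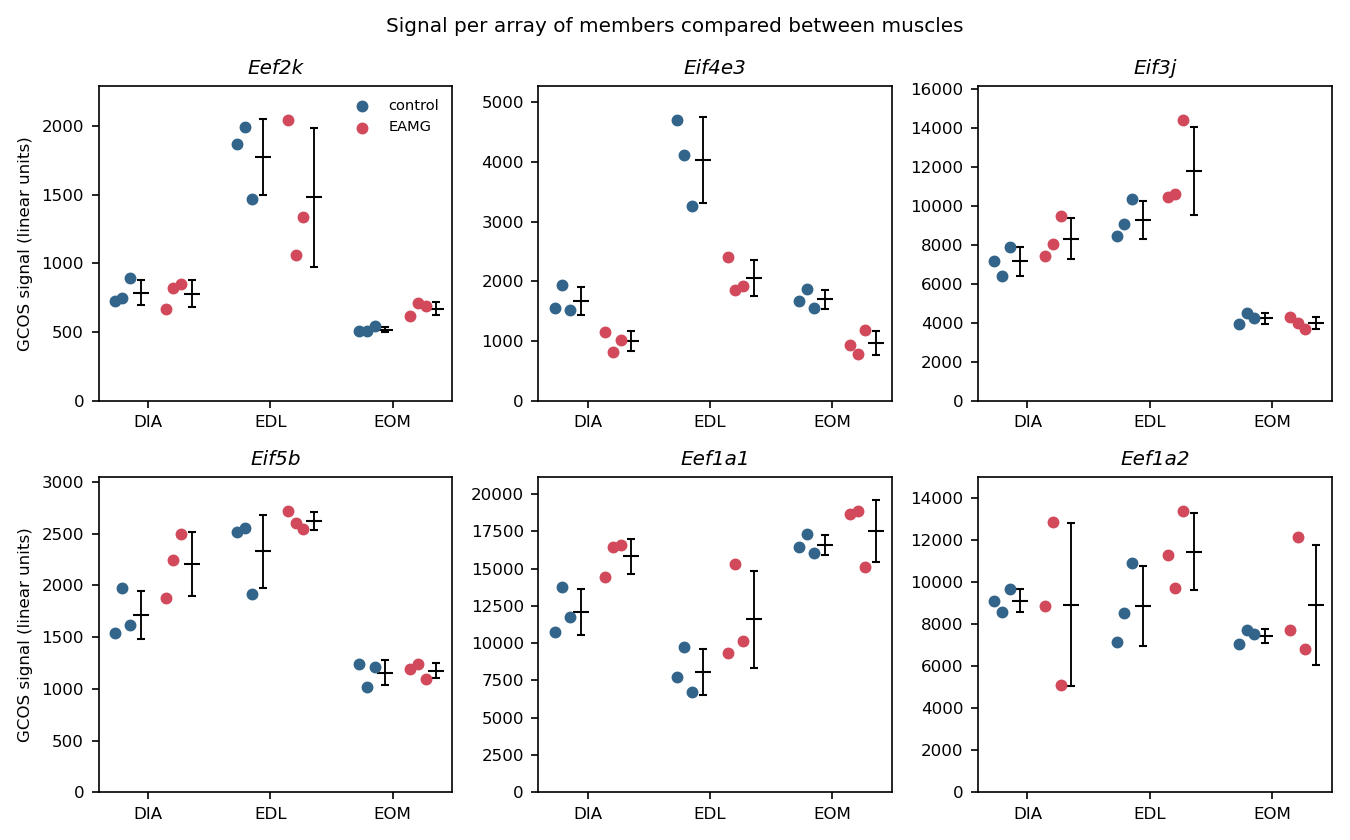
GCOS signal in linear units (vertical axes, from 0) of Eef2k, Eif4e3, Eif3j, Eif5b, Eef1a1 and Eef1a2 by muscle, with 1 point per array and black bars for the mean ± SD of 3 arrays (blue control, red EAMG). Eef2k, Eif3j and Eif5b are highest in EDL and lowest in EOM, Eef1a1 runs in the reverse order, and Eef1a2 overlaps between muscles.

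The genes that regulate these factors were described from lists. Of 24 tested genes of mTORC1 signalling, 1 rose in DIA, 2 rose and 2 fell in EDL and 1 rose in EOM, where 1.53% of all probe sets rose in DIA, 3.37% rose and 3.22% fell in EDL, and 0.964% rose in EOM. The medians of the list were 0.15, 0.08 and 0.03. Ddit4, which encodes REDD1, an inhibitor of mTORC1 induced by glucocorticoids and stress, rose in every muscle, by 1.62 in DIA, 2.25 in EDL and 1.503 in EOM (limma adjusted p = 0.012, 0.0015 and 0.017). In DIA its signal went from 686, 1085 and 1284 to 2856, 3819 and 2532, in EDL from 966, 1724 and 1491 to 5401, 5007 and 9821, and in EOM from 1102, 1431 and 1586 to 4319, 3194 and 4127, with no overlap. Sesn1, another inhibitor of the pathway, rose in EDL by 1.41 (adjusted p = 0.016), from 1220, 1353 and 1478 to 1873, 4532 and 5406. Deptor, an inhibitory subunit of mTOR complexes, fell in EDL by 0.71 (adjusted p = 0.019), and Rps6kb1, the S6 kinase that mTORC1 activates, fell in EDL by 0.51 (adjusted p = 0.042). Mtor itself had changes of 0.13, 0.08 and -0.23, none of which passed.

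The integrated stress response is the programme that follows phosphorylation of eIF2. Of its 15 tested genes none passed in DIA, 2 rose in EDL and 1 rose in EOM, against the same 1.53%, 3.37% and 0.964% of all probe sets. Chac1, a glutathione-degrading enzyme, rose in EDL by 1.13 (limma adjusted p = 0.041), from 2711, 2690 and 3188 to 4715, 6476 and 8007. Ppp1r15a, the GADD34 subunit that directs a phosphatase to eIF2, rose in EDL by 1.08 (adjusted p = 0.003), from 665, 775 and 787 to 1156, 1865 and 1771. Cebpb, a transcription factor with many other inputs, rose in EOM by 1.36 (adjusted p = 0.035). Atf4 and Ddit3, transcription factors of this programme, had changes between -0.25 and 0.12 and did not pass.

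Of 28 other genes of the translation machinery that were tested, Abcf1, whose product associates with ribosomes and eIF2, rose in EDL by 0.51 (limma adjusted p = 0.033), and Paip1, a partner of the poly(A)-binding protein, fell in EDL by 0.82 (adjusted p = 0.012), with no call in DIA or EOM, where 3.37% of all probe sets rose in EDL and 3.22% fell. The medians of this list were 0.22, 0.12 and -0.05. The oligopyrimidine class was listed from general knowledge, with results of these data known, and not from the windows above. Of its 8 tested members, all 8 had changes above 0 in DIA and EDL and 7 in EOM. Above 0 were also 42, 44 and 37 of the 53 members, and 51.3%, 49.7% and 50.1% of all probe sets. The medians of the class were 0.32, 0.20 and 0.07, and Eef2 in EDL passed, where 3.37% of all probe sets rose. All 9 slow-fibre contractile genes were above 0 in EDL, against 1 in DIA and 2 in EOM, with medians of 0.51, -0.13 and -0.09. In EDL Myoz2 passed, against the same 3.37%, and EDL EAMG 2 carried the highest signal of each. Fast-fibre genes were below 0 for 9 of 9 in DIA and EDL. Of these Pvalb fell in DIA by 1.21, where 1.15% of all probe sets fell. Their part in the members' changes was not tested.

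**Figure D5:**
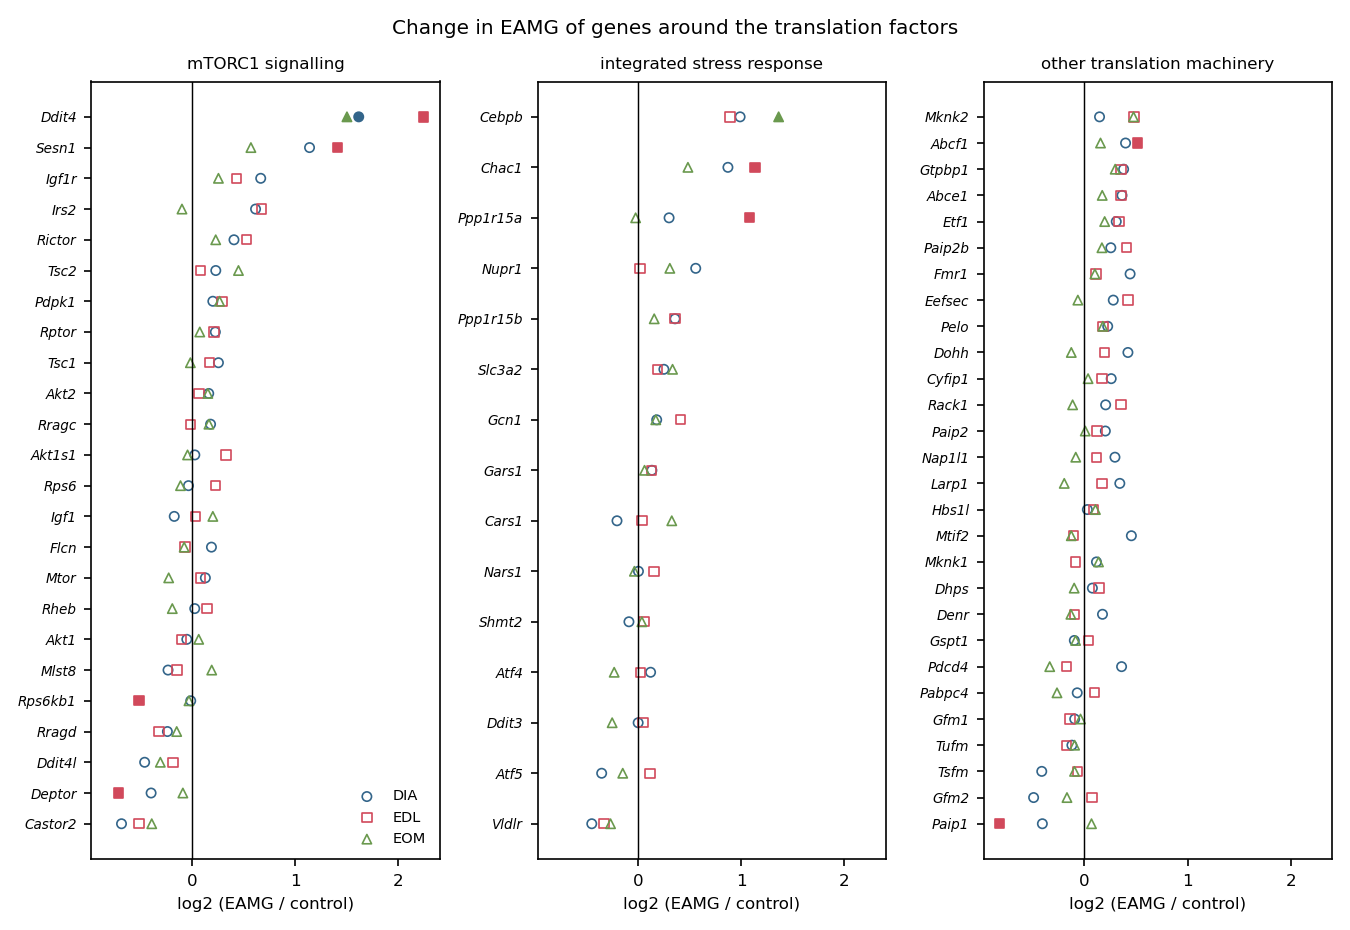
log2 change in EAMG over control (horizontal axes) of the tested genes of mTORC1 signalling, the integrated stress response and other translation machinery, ordered by the mean over muscles, with circles for DIA, squares for EDL and triangles for EOM, filled where the limma adjusted p was under 0.05. Ddit4 is filled in all 3 muscles, from 1.503 to 2.25, and most other genes lie near 0.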

How the data were processed

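RNA of 18 pooled muscle samples was hybridised to Affymetrix rat 230 2.0 arrays. The deposited values are intensities on a linear scale, which the authors made with Affymetrix GCOS software, which summarises matched and mismatched probes into 1 signal, and scaled to a common target. Array control probe sets were set aside, and gene symbols came from the platform annotation, in which the gene IDs of all 60 members matched the RefSeq table. Probe sets that reached 400 on at least 1 array were taken to log2 without an offset, and limma 3.58.1 (R 4.3.3, lmFit and eBayes) took all 18 arrays in a single fit with a mean for each group. P-values were adjusted by Benjamini-Hochberg over 12238 probe sets. Sequences came from RefSeq promoters on GRCr8, and python 3.11.15 with matplotlib 3.10.9 was used for tables and figures. The script was tested on simulated data. Depth does not apply to arrays, and 3 arrays per group limit the precision. P-values measure the spread between these pools, which may be partly technical. The methods state that the study was repeated to give the replicates.

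The genes with values per array were those passing in a muscle or, with a change of at least 0.5, over the muscles, those differing between control muscles by at least 1, the brightest member of each role group, the eEF1A and eIF4E isoforms and binding proteins, and the largest passing changes of each list. Members and lists were chosen with earlier results of these data known.

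Same-numbered EDL control and EAMG arrays deviated together (r of 0.148 to 0.342 over probe sets), which was taken as pairing in EDL. In DIA r was -0.027 to 0.183 and in EOM -0.007 to 0.189, which was not. The main fit, from which the EDL values come, did not use this pairing. No fit that paired the EDL arrays alone was run. Across muscles, same-numbered control arrays of DIA and EDL had r of 0.050, 0.367 and 0.390. For DIA and EOM EAMG 2, the arrays of low poly-A signal, r was 0.469, and for EDL and EOM EAMG 3 it was -0.200. The alternatives tried were no signal minimum, the minimum on 3 arrays, quantile normalization, 100 added to each signal, only the arrays compared, a replicate block, leaving out arrays, the second probe set of a gene, and a rule of 7 of 9 ratios of 2-fold. No column of the authors' own comparisons was used.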

Additional observations from a re-analysis of the deposited data

How the results depend on the processing

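Eif4e3 fell over the 3 muscles, and Eif4ebp1, Eif4g3 and Eef2 rose, under each alternative fitted for them on the same probe set. The numbers of members that passed within a muscle changed with most settings. By the second probe set, tested for 16 members, the change took the opposite sign for 5 in DIA, 5 in EDL, 3 in EOM and 3 over the muscles. In DIA these were Eef1g, Eef2k, Eif2b5, Eif4b and Eif4h, and in EDL Eef1g, Eef2k, Eif2ak1, Eif3a and Eif5b. In EOM they were Eef1a1, Eif4b and Eif5b. Over the muscles they were Eif1a, Eif5b and Eef1g, whose mean change went from 0.02 to -0.53. Without a signal minimum 0 members passed in DIA, 0 in EDL and 0 in EOM, 7 over the 3 muscles, 5 for EOM against DIA and 4 for DIA against EDL. Of all 31042 probe sets, 36, 158, 39, 1267, 1912 and 1952 passed, in the same order. With only the arrays of the muscles compared there were 0 in DIA, 0 in EDL, 0 in EOM and 5 for DIA against EDL. Of all 12238 probe sets, 14, 3, 176 and 2397 passed in these contrasts, against 328, 806, 183 and 3040 in the main fit. Without both arrays of low poly-A signal there were 0 in DIA, 0 in EOM and 10 over the 3 muscles. Of all 12238 probe sets, 51, 126 and 1636 passed there. With the second probe set there were 1 in DIA, 4 in EDL, 0 in EOM and 11 over the 3 muscles, where genes whose second probe set was under the minimum dropped out. The rule of 7 of 9 ratios gave 0 in each muscle. Between EAMG arrays in place of control arrays, 19 members differed between EOM and DIA. Leaving out 1 array gave 0 to 7 in DIA, 1 to 10 in EDL, 0 to 1 in EOM, 10 to 21 over the 3 muscles, 18 to 29 for EOM against EDL, 4 to 13 for EOM against DIA, 4 to 10 for DIA against EDL and 0 to 1 for changes that differed between muscles. The median change of the members stayed within 0.1882 to 0.2662 in DIA, 0.1715 to 0.2162 in EDL and 0.0243 to 0.1106 in EOM, highest without EOM EAMG 3. With the replicate block the counts were 2 in DIA, 7 in EDL, 1 in EOM, 19 over the 3 muscles, 27 for EOM against EDL, 12 for EOM against DIA and 10 for DIA against EDL. Of all 12238 probe sets, 457, 1050, 228, 2805, 5280, 2791 and 3273 passed, in the same order. The cause of these shifts was not tested. More probe sets were tested without a minimum, and fewer arrays were fitted where arrays were left out, but neither was examined alone. Dim probe sets limit the 7 untested members, for which no change was estimated.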
